A study of Mus musculus with 6 samples.

Results

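The adipogenic transcription factors and cofactors are a set of 10 genes chosen by name: the nuclear receptor gene Pparg, the C/EBP genes Cebpa, Cebpb, Cebpd and Cebpg, the early B-cell factor genes Ebf1 and Ebf2, the zinc-finger gene Zfp423, and the coactivator genes Ppargc1a and Ppargc1b. The authors' deposited table, which compares 2 cultured mouse lines over 14472 genes, holds 9 of them, each on a single row, and Zfp423 was not analysed here. The altered line is labelled mLPS1 NICD Knockout (3 libraries, titles p34, p36 and p39), and the line it is set against is labelled mLPS1 wild type, genotype WT (3 libraries, titles p35, p37 and p40). Both are labelled as dedifferentiated liposarcoma cells, a tumour of the fat lineage that has lost fat-cell features. NICD is the intracellular domain of Notch, the piece that activates transcription with Rbpj once a receptor is cleaved. The title of the series names Notch over-expression and the design text calls the altered cells mLPS1-dNICD. How the domain was altered, and whether the altered line is a single clone, is not stated in the labels. The labels name 1 line per genotype and no separate cultures, so the p-values cover library-to-library spread alone, which may be technical.

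In the textbook cascade of fat-cell differentiation, Cebpb and Cebpd act early and switch on Pparg and Cebpa, which then maintain each other and drive the genes of the mature adipocyte. Zfp423 and the Ebf factors act around commitment, with Ebf2 known in mice for brown and beige precursors, while Ppargc1a and Ppargc1b are coactivators that raise mitochondrial gene expression and, for Ppargc1a, thermogenesis. Notch activity in mouse fat is known to restrain browning, so the comparison asks how these regulators stand in liposarcoma cells labelled as its knockout.

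For each gene the table gives the mean of its normalised counts, the log2 fold change (NICD Knockout over WT) with a standard error (SE), and p-values, but values of single libraries and library depths were not analysed here. Levels below are therefore fitted for each group from the mean and the fold change, in normalised counts per library, and intervals are 95% Wald intervals. Precision differed between genes: the median SE in the authors' deposited table was 0.16 at means of 100 or more and 0.90 at means under 50. The receptor gene Notch1 had fitted levels of 2234 in NICD Knockout and 7665 in WT, at a log2 fold change of -1.78 (SE 0.13, DESeq2 adjusted p = 1.08e-38, the authors' deposited table). As 1 row holds all Notch1 RNA, that value does not check the labels. Of 9 markers of mesenchymal cells, 8 were tested, 3 higher and 5 lower in NICD Knockout, with summed fitted levels of 93722 in NICD Knockout and 166249 in WT. Vim, named after its value was seen, made up 66646 of that sum in NICD Knockout and 98030 in WT. The 4 markers with the smallest p were Pdgfrb, Col3a1 and Col1a1, all lower, and S100a4, which was higher. Their fitted levels in NICD Knockout and WT were 2081 and 16873 for Pdgfrb, and 1423 and 13525 for Col3a1. Those of Col1a1 were 8050 in NICD Knockout and 30866 in WT, and those of S100a4 were 13288 in NICD Knockout and 3866 in WT. The 6 defining adipocyte markers (Adipoq, Lep, Plin1, Cidec, Retn and Cfd) have no row and were not analysed here. All 7 pericyte and smooth muscle markers were lower in NICD Knockout, with summed fitted levels of 5448 in NICD Knockout and 108775 in WT. Most of that sum was Acta2, at 5224 in NICD Knockout and 81441 in WT. Of 5 leukocyte markers, 3 were tested and 1, Cd68, was higher in NICD Knockout, with summed levels of 2274 in NICD Knockout and 203.6 in WT. Cd68 alone made up 2238 of that sum in NICD Knockout and 179.0 in WT, while Csf1r, at 22.5 in NICD Knockout and 20.8 in WT, and Ptprc, at 13.7 in NICD Knockout and 3.74 in WT, were not called. The 4 endothelial markers summed to 50.1 in NICD Knockout and 63.6 in WT, with 1 lower, and the 1 epithelial marker tested of 4, Krt14, was lower at 12.2 in NICD Knockout and 40.6 in WT. The part of these marker shifts in the results below was not tested, and in bulk RNA fewer cells of a type and less RNA per cell cannot be told apart.

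The regulators moved in both directions. Ebf1 and Ebf2 were strongly lower in NICD Knockout and Cebpd modestly lower, while Ppargc1a was higher, against a WT level at the bottom of the table, and Cebpb was 1.92-fold higher. Pparg, Cebpa, Cebpg and Ppargc1b did not pass. In all, 5 of 9 tested regulators (55.6%) had an adjusted p under 0.05 from the authors' DESeq2 fit, 2 higher and 3 lower, beside 50.5% of all 14470 tested genes. That share is near the background, where 25.4% of all genes were called higher and 25.1% lower, so the count by itself is not a result about these regulators. Their median log2 fold change was -0.32, against 0.02 over all tested genes, and their median absolute log2 fold change was 0.94, against 0.52. The absolute medians are not matched for expression, and SEs are larger at low means. Of the 9 regulators 5 had a mean under 50, beside 3239 of all 14470 tested genes. Among the 4 regulators with a mean of at least 100, 3 were called, against 54.6% of such genes, and among the 5 with a mean under 50, 2 were called, against 37.1%.

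**Figure D1:**
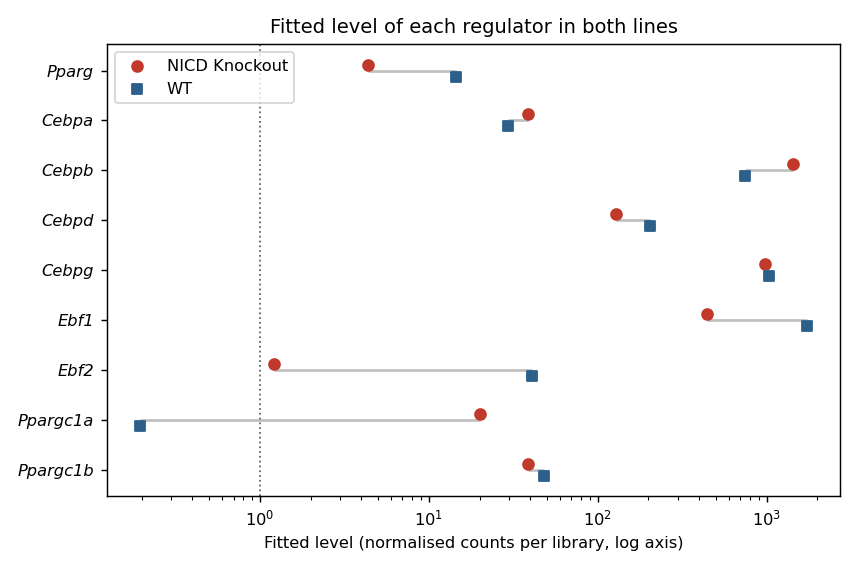
Fitted level of each of the 9 regulators in NICD Knockout (circles) and WT (squares), in normalised counts per library on a log axis, with a dotted line at 1 normalised count per library. Ebf1 and Ebf2 lie to the left in NICD Knockout and Ppargc1a to the right, whereas the 2 marks of Cebpg, at 977 in NICD Knockout and 1039.5 in WT, nearly coincide.

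Ebf1, a helix-loop-helix factor that binds many adipocyte genes, had the smallest SE of the changed regulators, at 0.20 beside 0.21 for Cebpd. That SE was still above the SE of 86% of the 200 genes nearest to Ebf1 in mean. The fitted level of Ebf1 was 442 in NICD Knockout, against 1736 in WT. The authors' deposited table gives Ebf1 (ENSMUSG00000057098, chromosome 11) a log2 fold change of -1.98 (SE 0.20, interval -2.37 to -1.58), which is 3.93-fold lower in NICD Knockout (2.98 to 5.18-fold) with an adjusted p of 3.81e-21. Of the 200 genes nearest to Ebf1 in mean, 4.50% changed by more in either direction. That share was 7% for Ebf2, 17.5% for Cebpb and 41.5% for both Cebpd and Pparg, each among its own 200 nearest genes. For Cebpa, Cebpg and Ppargc1b, which were not called, it was 77.5%, 86% and 85.5%. The median over the 20 expressed neighbours of Ebf1 on the chromosome was 0.04 on the log2 scale.

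Ebf2, the family member that marks brown and beige precursors in mice, was close to the bottom of the table in NICD Knockout. Its fitted level was 1.22 normalised counts per library there, against 41.2 in WT. For Ebf2 (ENSMUSG00000022053, chromosome 14) the authors' deposited table has a log2 fold change of -5.07 (SE 0.998, adjusted p = 1.97e-06). That is a 33.7-fold lower level with an interval from 8.68 to 130.6-fold, so its size is known far less well than that of Ebf1. The neighbour median was -0.25.

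The remaining Ebf genes gave other values. Ebf3 had fitted levels of 128.7 in NICD Knockout and 124.0 in WT, at 0.05 on the log2 scale of the authors' deposited table (SE 0.25, interval -0.43 to 0.53, adjusted p = 0.876). Ebf4 rose to 36.8 in NICD Knockout, against 9.90 in WT, at 1.89 on the log2 scale of the authors' deposited table (SE 0.52, adjusted p = 8.31e-04). The call of Ebf4 was lost under Bonferroni adjustment, with a t distribution of 4 degrees of freedom (adjusted p = 0.0708) and in the test of a change beyond 2-fold (adjusted p = 0.523). Ebf3 was named after its value was seen. Per kilobase of the longest protein-coding transcript, the 4 Ebf genes together had a fitted level of 112.2 in NICD Knockout and 326.4 in WT. Ebf1 held 65.8% of this sum in NICD Knockout and 89.0% in WT, Ebf3 held 23.0% in NICD Knockout and 7.61% in WT, and Ebf4 held 10.998% in NICD Knockout and 1.02% in WT. Ebf1 therefore remained the family's most abundant transcript per length in both lines, by fitted values that carry no test of the shares.

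RefSeq's promoter table (GRCm38.p6) has 2 start sites for Ebf1 and no entry for Ebf2. The 250 bases before the second Ebf1 start are printed because Ebf1 carries the fall with the smallest SE. Capitals here and in the sequences below mark any of 4 motifs searched on both strands: the Rbpj core TGGGAA, the C/EBP pattern TTGCNNAA, the cAMP response half-site TGACG and the EBF pattern CCCNNGGG. No 2 matches overlap in the windows printed. The window lies at chr11:44619978-44620227 on the plus strand, has 52.0% G and C, and holds 1 Rbpj core, read on the minus strand and starting 207 bases before the start. That core is found in 21.6% of all 32851 windows of the same length, and a match is a string of letters, not a shown binding site.
Ebf1, the second start: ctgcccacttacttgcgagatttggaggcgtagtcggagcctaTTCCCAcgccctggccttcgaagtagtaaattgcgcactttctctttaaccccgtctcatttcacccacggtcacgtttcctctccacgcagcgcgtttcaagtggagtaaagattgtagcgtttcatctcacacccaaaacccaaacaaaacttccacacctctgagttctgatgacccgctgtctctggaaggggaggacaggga

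Ppargc1a, the coactivator known for mitochondrial biogenesis and thermogenesis, showed the reverse pattern at a low level. Its fitted level was 19.996 in NICD Knockout, against 0.195 in WT. This WT level lies in the bottom cluster of the table, where 176 genes have a fitted WT level between 0.15 and 0.2 and no gene lies below that range. The authors' deposited table gives Ppargc1a (ENSMUSG00000029167, chromosome 5) a log2 fold change of 6.68 (SE 1.40, interval 3.93 to 9.43) with an adjusted p of 9.40e-06. Since the fitted ratio depends on how the fit treats a group near 0, the level was also set against a floor of 3 counts over the 3 WT libraries, or 1 per library, which gives a ratio of 19.996 (4.32 on the log2 scale). That ratio carries no error of the NICD Knockout level and is not a lower bound: the Wald interval starts at 15.2-fold, and shrinkage by a normal prior gives 3.35 on the log2 scale. At these fitted levels the SE is smaller than counting alone would give, so the Wald interval may be too narrow. Of the 200 genes nearest in mean, 3.50% changed by more, and the neighbour median was -0.16. With a mean of 10.1 normalised counts, Ppargc1a ranks at 10.8% of the table from the bottom, so the rise is large in ratio and small in RNA.

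Ppargc1b, the paralogous coactivator, did not pass. Its fitted levels were 38.8 in NICD Knockout and 48.3 in WT, at -0.32 on the log2 scale of the authors' deposited table (SE 0.37, interval -1.04 to 0.40, adjusted p = 0.494). The interval leaves room for anything from a 2.06-fold lower to a 1.32-fold higher level. Pprc1, the remaining gene of the coactivator family, stood at -0.28 on the log2 scale of the authors' deposited table (SE 0.13, adjusted p = 0.0549), and was named after its value was seen. Per kilobase of transcript, Pprc1 held 97.8% of the summed level of the 3 coactivator genes in NICD Knockout and 98.2% in WT. Ppargc1a held 0.507% of it in NICD Knockout and 0.00410% in WT, within a fitted sum of 610.2 in NICD Knockout and 738.3 in WT.

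The window before the single Ppargc1a start in RefSeq's table (GRCm38.p6, chr5:51567726-51567975, minus strand) is shown because the cAMP response element is the textbook control site of this gene. It has 48.0% G and C, and 1 half-site, on the strand opposite to the gene, starting 49 bases before the start. The half-site is found in 17.8% of all windows. A half-site is not the whole element, and whether the textbook control site lies before this start was not analysed here. No window of Ppargc1b is shown.
Ppargc1a: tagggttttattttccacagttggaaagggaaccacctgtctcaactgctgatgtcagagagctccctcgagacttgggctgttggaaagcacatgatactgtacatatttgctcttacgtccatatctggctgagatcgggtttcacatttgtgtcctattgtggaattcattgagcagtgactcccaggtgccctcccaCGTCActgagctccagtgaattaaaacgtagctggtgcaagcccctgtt

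**Figure D2:**
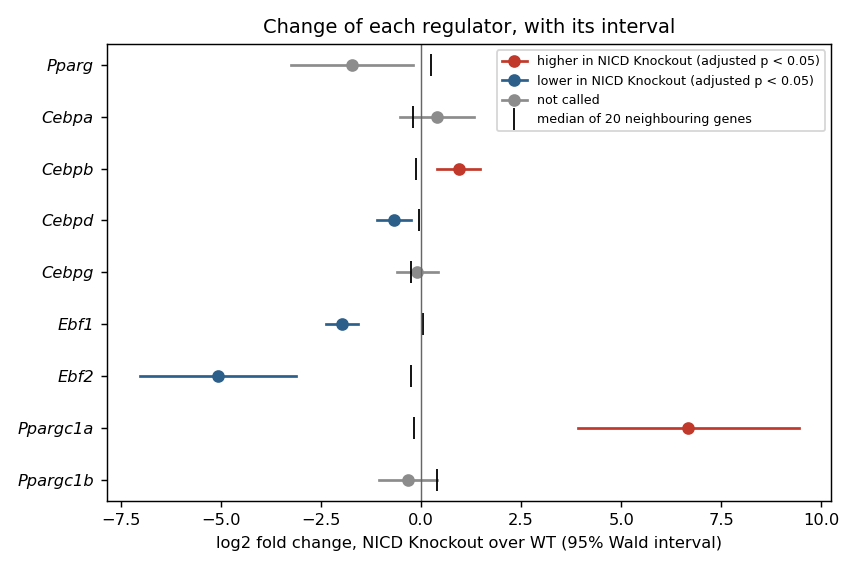
Log2 fold change of each regulator, NICD Knockout over WT (points), with its 95% Wald interval (lines) and the median log2 fold change of its 20 expressed protein-coding neighbours on the chromosome (ticks). Intervals of Cebpb and Ppargc1a lie above 0 and those of Cebpd, Ebf1, Ebf2 and Pparg below, though Pparg misses the threshold after adjustment (adjusted p = 0.0542), and neighbour medians lie between -0.25 and 0.39.

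Among the C/EBP factors, the early-acting pair split. Cebpb, which starts the adipogenic cascade and also serves inflammatory gene control, had a fitted level of 1432 in NICD Knockout, against 747 in WT. The authors' deposited table gives Cebpb (ENSMUSG00000056501, chromosome 2) a log2 fold change of 0.94 (SE 0.27, interval 0.41 to 1.46), which is 1.92-fold higher in NICD Knockout (1.33 to 2.76-fold) with an adjusted p of 0.00149. Cebpd, its usual partner in early adipogenesis, had a fitted level of 127.9 in NICD Knockout, against 203.4 in WT. For Cebpd (ENSMUSG00000071637, chromosome 16) the authors' deposited table has a log2 fold change of -0.67 (SE 0.21, interval -1.09 to -0.25), which is 1.59-fold lower in NICD Knockout (1.19 to 2.13-fold) with an adjusted p of 0.00475. Their intervals lie on opposite sides of 0, and the difference between the 2 genes was not tested. Both calls were lost when the Wald statistic was read against a t distribution with 4 degrees of freedom (adjusted p = 0.0775 for Cebpb and 0.0951 for Cebpd), and under Bonferroni adjustment.

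Neither Cebpa nor Cebpg passed. Cebpa, which with Pparg holds the adipocyte state, had fitted levels of 38.9 in NICD Knockout and 29.4 in WT, at 0.40 on the log2 scale of the authors' deposited table (SE 0.47, interval -0.52 to 1.32, adjusted p = 0.501). Its interval runs from a 1.44-fold lower to a 2.50-fold higher level. Cebpg, a C/EBP protein that lacks an activation domain and pairs with other bZIP factors, had fitted levels of 977 in NICD Knockout and 1039.5 in WT, at -0.09 on the log2 scale of the authors' deposited table (SE 0.27, interval -0.61 to 0.43, adjusted p = 0.803). Both genes lie on chromosome 7, with neighbour medians of -0.20 for Cebpa and -0.25 for Cebpg on the log2 scale.

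Cebpb and Cebpg were less precisely measured than most genes of similar mean. Among the 200 genes nearest in mean, the SE of each exceeded that of 97.0% of genes, with 0.27 for Cebpb and 0.27 for Cebpg in the authors' deposited table beside a median of 0.14. Under a negative binomial spread, their SEs correspond to a coefficient of variation between libraries of 22.6% for Cebpb and 22.4% for Cebpg, against 16.3% for Cebpd and 16.8% for Ebf1. Per kilobase of transcript, the 4 C/EBP genes had a summed fitted level of 1208 in NICD Knockout and 783 in WT. Cebpb held 78.8% of it in NICD Knockout and 63.4% in WT, Cebpg 17.2% in NICD Knockout and 28.2% in WT, Cebpd 2.83% in NICD Knockout and 6.93% in WT, and Cebpa 1.22% in NICD Knockout and 1.43% in WT. In both lines the order per length was thus Cebpb, Cebpg, Cebpd and Cebpa, and the factor of the late adipocyte state was the lowest.

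**Figure D3:**
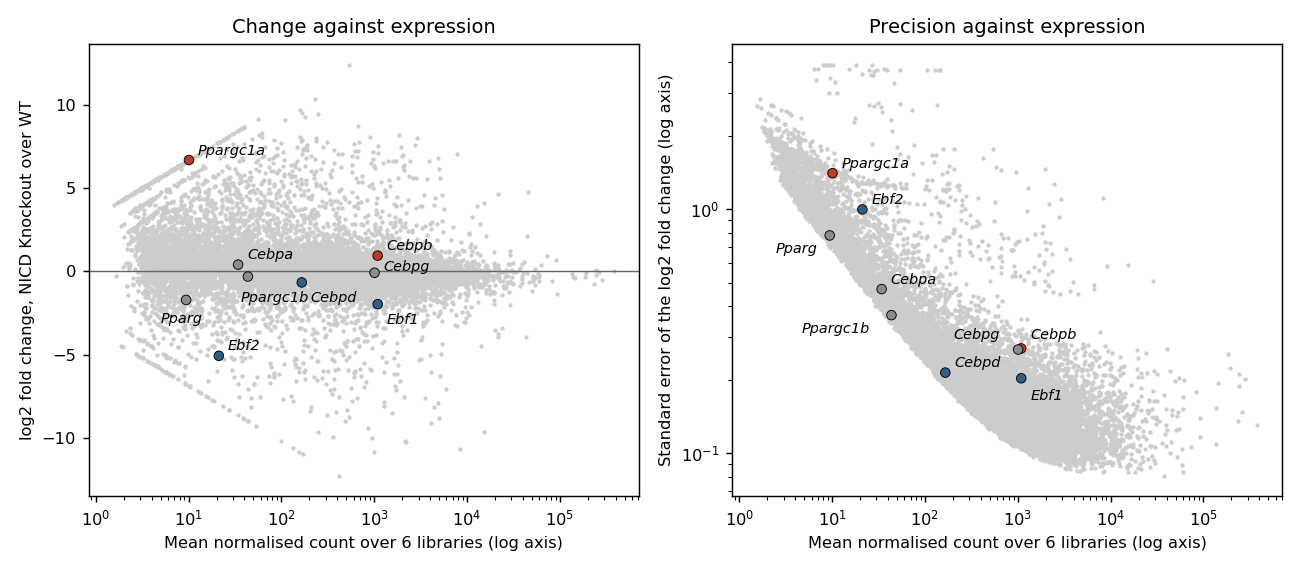
Log2 fold change (left) and its standard error on a log axis (right) against the mean normalised count over 6 libraries, on a log axis, for all tested genes (grey) and the 9 regulators (red higher and blue lower in NICD Knockout, dark grey not called). Ppargc1a lies on the upper diagonal edge, where WT is fitted at the bottom of the table. In standard error, Cebpb, Cebpg, Ebf1, Ebf2 and Ppargc1a lie above most genes of their mean.

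The window before the Cebpb start (GRCm38.p6, chr2:167688665-167688914, plus strand) is shown because Cebpb is the C/EBP gene that was higher. It has 81.6% G and C, beside a median of 52.4% over all windows. It holds 3 cAMP response half-sites, starting 180, 53 and 7 bases before the start, and 1 EBF pattern, starting 208 bases before it and found in 11.8% of all windows. At least 1 half-site is found in 17.8% of all windows. No share was computed for 3 copies or for windows of like G and C. The windows of Cebpa and Cebpg hold none of the 4 motifs, and Cebpd has no entry in the table.
Cebpb: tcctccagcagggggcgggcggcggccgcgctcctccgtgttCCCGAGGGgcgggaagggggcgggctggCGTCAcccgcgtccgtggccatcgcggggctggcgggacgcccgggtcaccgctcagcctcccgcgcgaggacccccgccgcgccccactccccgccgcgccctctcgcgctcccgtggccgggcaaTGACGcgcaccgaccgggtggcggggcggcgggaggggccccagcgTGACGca

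Pparg, the receptor without which fat cells do not form, was low in both lines. Its fitted level was 4.39 in NICD Knockout and 14.4 in WT, and its mean of 9.42 ranks at 10.2% of the table from the bottom. The authors' deposited table gives Pparg (ENSMUSG00000000440, chromosome 6) a log2 fold change of -1.72 (SE 0.78, interval -3.25 to -0.19, unadjusted p = 0.0277), with an adjusted p of 0.0542 that misses the threshold. Of 7 alternatives run for Pparg, 1 gave a call: subtracting the median of its 20 neighbours, 0.25 (log2 fold change -1.97, adjusted p = 0.0267). That subtraction keeps the deposited SE and gives the neighbour median no error. The adjusted p was 0.0623 after centring and 0.181 when the Wald statistic was read against a t distribution with 4 degrees of freedom. The interval reaches from a 1.14-fold to a 9.50-fold lower level. A gene-level row adds the transcripts of the 3 Pparg start sites in RefSeq's table, so which isoform the reads came from was not analysed here.

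The window before the third Pparg start (GRCm38.p6, chr6:115421816-115422065, plus strand) is shown because C/EBP proteins are the textbook activators of Pparg. It has 40.8% G and C and holds 2 C/EBP patterns, starting 215 and 16 bases before the start, the second read on the minus strand, and 1 Rbpj core on the minus strand starting 114 bases before it. The C/EBP pattern is found in 9.56% of all windows.
Pparg, the third start: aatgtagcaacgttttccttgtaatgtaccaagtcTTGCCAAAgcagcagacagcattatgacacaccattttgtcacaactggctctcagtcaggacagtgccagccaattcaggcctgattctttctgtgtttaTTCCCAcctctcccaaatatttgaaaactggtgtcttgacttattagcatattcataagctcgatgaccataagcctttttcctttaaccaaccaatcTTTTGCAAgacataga

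Compared per kilobase, Pparg was a minor member of its receptor family. The 3 PPAR genes summed to 548 in NICD Knockout and 862 in WT per kilobase of transcript, of which Ppard, the broadly expressed family member, made up 99.3% in NICD Knockout and 99.0% in WT. Ppard fell 1.57-fold, to 1783 in NICD Knockout against 2796 in WT as a fitted level per library, at -0.65 on the log2 scale of the authors' deposited table (SE 0.10, adjusted p = 1.38e-10). Rxra, the partner with which PPAR proteins bind DNA, fell 3.15-fold to 987 in NICD Knockout, against 3108 in WT, at -1.65 on the log2 scale of the authors' deposited table (SE 0.14, adjusted p = 2.54e-31).

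Other genes around the regulators were read from 6 lists chosen by gene name, whose counts stand beside 25.4% of all genes called higher, 25.1% called lower and a median log2 fold change of 0.02 over all. Of 23 other adipogenic transcription regulators, 22 were tested, 5 were higher and 9 lower in NICD Knockout, with a median log2 fold change of -0.28. Klf4, a zinc-finger factor that helps to induce Cebpb, rose 16.8-fold to 573 in NICD Knockout, against 34.1 in WT, at 4.07 on the log2 scale of the authors' deposited table (SE 0.29, adjusted p = 1.39e-43). Klf5, a Klf factor downstream of Cebpb and Cebpd, was also higher, at 0.95 on the log2 scale of the authors' deposited table (SE 0.23, adjusted p = 1.43e-04), and was named after its value was seen. Its call was lost under Bonferroni adjustment, in the 2-fold test and with the t distribution (adjusted p = 0.0558). Zfp467, a zinc-finger factor that favours fat over bone, fell 5.80-fold, at -2.54 on the log2 scale of the authors' deposited table (SE 0.19, adjusted p = 9.13e-41), in a stretch whose 20 neighbours had a median of -0.61. Klf9, a Klf factor of mid-stage adipogenesis, fell 2.07-fold at -1.05 (SE 0.14, adjusted p = 1.20e-12, the authors' deposited table).

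Restraints of adipogenic transcription were tested for 20 of 23 genes, with 12 lower and 4 higher in NICD Knockout and a median log2 fold change of -0.49. Trib2, a pseudokinase that directs the breakdown of C/EBP proteins, fell 59.5-fold to 30.6 in NICD Knockout, against 1824 in WT, at -5.90 on the log2 scale of the authors' deposited table (SE 0.25, adjusted p = 1.21e-124). Hes1, a repressor induced by Notch, fell 6.93-fold, Klf2 fell 3.12-fold and the nuclear receptor gene Nr2f2 fell 2.52-fold, by the authors' deposited table (adjusted p of 1.39e-35, 3.92e-14 and 1.66e-18). The neighbour median for Trib2 was -0.88 on the log2 scale. The 4 higher genes, named after their values were seen, were Ddit3, Foxo1, Gata3 and Wnt10b, and the last 3 of them lost their calls at the threshold of 0.01.

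The bZIP partners and degraders of C/EBP proteins, of which Trib2, Trib3 and Ddit3 also stand in the list of restraints, had 2 higher and 2 lower of 12 tested, with a median log2 fold change of 0.11. Beside Trib2, the second degrader gene Trib1 fell 2.86-fold to 511 in NICD Knockout, against 1464 in WT, at -1.52 on the log2 scale of the authors' deposited table (SE 0.15, adjusted p = 6.46e-23). Ddit3, a bZIP protein that pairs with C/EBP factors and blocks their binding, rose 2.54-fold to 2064 in NICD Knockout, against 812 in WT, at 1.35 on the log2 scale of the authors' deposited table (SE 0.30, adjusted p = 3.02e-05), a call lost under Bonferroni adjustment (adjusted p = 0.1004) and in the 2-fold test. Fos, a partner within AP-1, rose 2.39-fold at an adjusted p of 0.0231 in the authors' deposited table, a call lost at the stricter threshold of 0.01, under Bonferroni adjustment, in the 2-fold test, with the t distribution and with neighbours subtracted (adjusted p = 0.0925). Trib3, the remaining Trib gene of the list, had the value 0.17 on the log2 scale of the authors' deposited table (SE 0.85, adjusted p = 0.888). Its interval ran from -1.50 to 1.84, and it was named after its value was seen.

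**Figure D4:**
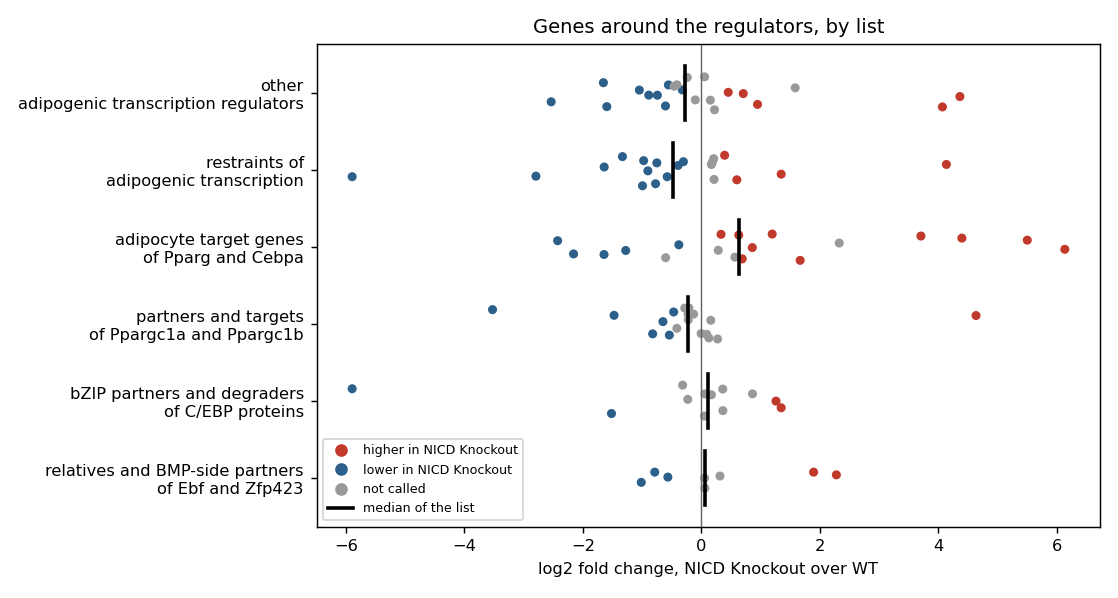
Log2 fold change, NICD Knockout over WT, of every tested gene in the 6 lists around the regulators (points, spread vertically at random within a list), coloured by call at an adjusted p under 0.05, with the median of each list (black bar). Medians lie between -0.49 for the restraints and 0.63 for the adipocyte target genes, and every list holds genes called in both directions.

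Adipocyte target genes of Pparg and Cebpa had 10 higher and 5 lower of 19 tested genes, with a median log2 fold change of 0.63, while 9 of the 28 listed genes, Plin1, Adipoq, Lep, Cidec, Cidea, Pck1, Retn, Cfd and Ucp1, were not analysed here. Fabp4, a fatty acid carrier, rose 70.3-fold to 307 in NICD Knockout, against 4.37 in WT, at 6.13 on the log2 scale of the authors' deposited table (SE 0.49, adjusted p = 8.20e-34). Pdk4, a kinase that turns fuel use towards fatty acids, rose 13.0-fold to 285 in NICD Knockout, against 21.8 in WT, at 3.71 on the log2 scale of the authors' deposited table (SE 0.27, adjusted p = 1.22e-40). Plin4, a lipid droplet coat gene, rose 21.1-fold and Lpl, which frees fatty acids from lipoproteins, fell 5.38-fold by the authors' deposited table (adjusted p of 2.75e-23 and 1.52e-51). The fitted level of Pparg was 4.39 in NICD Knockout and 14.4 in WT, and the relation of the listed genes to it was not tested.

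Partners and targets of the coactivators were tested for 18 of 19 genes, with 1 higher and 6 lower in NICD Knockout and a median log2 fold change of -0.22. Esrrb, an orphan receptor of the estrogen-related family, was the 1 higher gene, with 167.7 in NICD Knockout against 6.74 in WT, at 4.64 on the log2 scale of the authors' deposited table (SE 0.45, adjusted p = 4.62e-24). Perm1, a muscle regulator that acts with the coactivators, fell 11.5-fold to 4.66 in NICD Knockout, against 53.7 in WT, at -3.53 on the log2 scale of the authors' deposited table (SE 0.59, adjusted p = 1.24e-08). Gabpa, a subunit of a factor for mitochondrial genes, fell 2.78-fold, at -1.47 on the log2 scale of the authors' deposited table (SE 0.17, adjusted p = 9.40e-17), where its 20 neighbours had a median of -0.82. Esrra and Tfam, central partners of mitochondrial biogenesis that were named after their values were seen, did not pass, at -0.13 for Esrra (interval -0.38 to 0.12) and -0.22 for Tfam (interval -0.56 to 0.11) on the log2 scale of the authors' deposited table. The relation of these genes to Ppargc1a was not tested.

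Relatives and BMP-side partners of the Ebf factors and Zfp423 had 2 higher and 3 lower of 8 tested, with a median log2 fold change of 0.06. Besides Ebf4, the higher gene was Smad9, a mediator of BMP signalling, which rose 4.85-fold at 2.28 on the log2 scale of the authors' deposited table (SE 0.41, adjusted p = 1.29e-07). The receptor gene Bmpr2 fell 2.02-fold and the mediator gene Smad5 fell 1.73-fold, by the authors' deposited table (adjusted p of 1.20e-10 and 1.75e-05), and Smad5 lost its call under Bonferroni adjustment (adjusted p = 0.0561) and both in the 2-fold test.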

How the data were processed

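Total RNA of 6 libraries, 3 labelled NICD Knockout and 3 labelled WT by genotype, came from TRI Reagent extraction, per the labels' protocols, and was sequenced. Salmon, DESeq2 and the build mm39 are named in the submitters' processing notes, without versions or settings. Per the file headers, the authors deposited 1 comparison table with a mean normalised count (a signal), a log2 fold change and its SE, a Wald statistic (a score), a p-value and its adjusted form for each gene. Its direction, knockout over wild type, comes from the name of the table. Recomputed Wald statistics, p-values and Benjamini-Hochberg adjusted values differed from the deposited ones by at most 1.56e-13, and 2 of 14472 rows had no p. As the table holds no counts of single libraries, no edgeR fit, though planned, was made: calls are those of the authors' DESeq2 fit at an adjusted p under 0.05 over all genes, and library depth is unknown.

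Wald intervals are the log2 fold change plus or minus 1.96 SE. Fitted levels assume that all 3 libraries of each group entered the mean. The chromosome, neighbours (10 expressed protein-coding genes on each side, mean of at least 100) and transcript lengths came from GENCODE M21 (GRCm38), matched by Ensembl identifier for 14456 rows; because the builds differ, no gene coordinates are printed. Promoter windows came from RefSeq's GRCm38.p6 table, which has entries for 7 of the 10 regulators, and windows that overlap a GENCODE transcript are not printed. The genes named are the 10 regulators and the 4 genes with the smallest p in each list, and others are marked where they appear. The regulators, the lists and the alternatives were chosen with earlier results of these data known. The alternatives were Bonferroni adjustment, a threshold of 0.01, means of at least 10 or 100, a t distribution, centring, a test against a 2-fold change, shrinkage and subtraction of the neighbour median. Python 3.11.15, numpy 2.4.6, pandas 2.3.3, scipy 1.17.1 and matplotlib 3.10.9 were used.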

Additional observations from a re-analysis of the deposited data

How the results depend on the processing

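No paired analysis was possible because the table holds group results and not libraries, and leaving out each library in turn was not run for the same reason. The calls of Ebf1, Ebf2 and Ppargc1a held under all alternatives in which the gene was tested, 9 for Ebf1 and 8 for the others (highest adjusted p of 0.0116 for Ebf1, 0.0375 for Ebf2 and 0.0425 for Ppargc1a). Shrinkage by a normal prior, which is among these alternatives, took Ebf2 to -3.38 and Ppargc1a to 3.35 on the log2 scale. It reuses the deposited adjusted p, so no call can change under it. Cebpb (0.94) and Cebpd (-0.67) lost their calls under Bonferroni adjustment, in a test of a change beyond 2-fold (adjusted p of 1 for both in each) and with a t distribution of 4 degrees of freedom. Pparg gained a call at -1.97 with neighbours subtracted and stayed uncalled in the other 6 of its 7 alternatives. With neighbours subtracted, Cebpg turned to 0.16 (adjusted p = 0.653). The count of regulators higher was 1 in place of 2 under Bonferroni, the 2-fold test, the t distribution and a mean of at least 100, which leaves 4 regulators. Of 108 list counts under the alternatives, 75 stayed within 1.5 times, among them all those under shrinkage, which could not change. Higher and lower counts of the other regulators became 1 and 5 (Bonferroni), 1 and 2 (2-fold) and 2 and 5 (t), and the higher count 3 at 0.01. Higher restraints were 0 (Bonferroni, 2-fold) or 1 (t, 0.01), and lower ones 3 (2-fold). Adipocyte targets were 6 and 2 (Bonferroni) and 4 and 1 (2-fold), with 2 lower by t and 3 lower at 0.01, at a mean of at least 100 and with neighbours subtracted. Coactivator partners were 1 lower (2-fold) and 0 higher (mean of at least 100). Higher bZIP partners were 0 (Bonferroni, 2-fold) or 1 (t, 0.01, neighbours). Ebf relatives were 1 and 1 (Bonferroni), 1 and 0 (2-fold), 1 higher (t) and 0 higher (mean of at least 100), where their median turned to -0.26. Stricter tests and fewer genes produce these losses by construction, and the cause of the shifts with neighbours subtracted was not tested. For genes with a mean under 50, a median SE of 0.90 limits what the table can show.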
